A study of Caenorhabditis elegans with 2 samples.

Results

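The regions described here were the 320 reproducible binding regions on chromosome X whose summit lay outside every coding promoter, of 2253 such regions in the genome. They came from ChIP-seq, the sequencing of DNA pulled down with a protein, on intact L4 larvae of the nematode Caenorhabditis elegans, a mixed-sex sample that the labels give as male and female pooled. The animals were of strain OP337, which carries the unc119(ed3) allele and the array wgIs377, in which fkh-10 is joined to TY1, EGFP and FLAG tags and which also holds unc119. There was 1 group, the libraries labelled FKH-10, with 2 biological replicates, so no condition was compared with another; the labels name fkh-10 in the antibody field and eGFP in the description. A reproducible region was one that passed the authors' irreproducible discovery rate (IDR) threshold over both replicates, and a coding promoter ran from 1000 bp upstream to 200 bp downstream of a protein-coding transcript start. The fkh-10 gene itself, examined to check the labels, had 0 summits within 20 kb in all 4 lists used. The lists of the single replicates held 30000 and 28886 regions, weak ones included. Whether summits could be called at this locus was not tested, so the count neither checks the labels nor shows a lack of binding. Whole animals mix all tissues, so the cells in which a region was occupied could not be told apart.

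FKH-10 belongs to the forkhead factors, which bind DNA through a winged-helix domain. In C. elegans, hermaphrodites lower transcription of both X chromosomes to match the single X of males. This dosage compensation is carried out by a condensin-like protein complex, which is loaded onto X at recruitment sites that carry a clustered G-rich motif and spreads from there along the chromosome. The complex itself was not measured in these libraries. The letters searched for this motif were GCGCAGGG, called the core here, on either strand and within 100 bp of a summit.

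The strongest regions of the set are shown first, because the motif lies in their sequence. The signal is the authors' value for a region, an enrichment against a control library on a scale that the sources used here do not give. Windows of 151 bases centred on the summit are on ce11 (WBcel235), plus strand, from the RefSeq genome of that build. Capitals mark the core, and also GCGAAGGG, which is the core with 1 letter changed, and GTGGATAA, each on either strand. The last 2 words were picked after the windows of the strongest regions had been read. The 4 strongest regions with a core were the following.
W02H3.3 chrX:11094157-11094307 (+): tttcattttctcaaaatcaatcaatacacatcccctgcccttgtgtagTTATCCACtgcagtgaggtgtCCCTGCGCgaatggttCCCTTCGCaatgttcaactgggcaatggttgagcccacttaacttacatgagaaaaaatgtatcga
mom-1 chrX:6296482-6296632 (+): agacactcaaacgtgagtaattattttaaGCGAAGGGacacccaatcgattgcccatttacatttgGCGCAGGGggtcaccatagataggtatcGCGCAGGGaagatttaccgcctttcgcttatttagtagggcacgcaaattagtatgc
gtr-1 chrX:806600-806750 (+): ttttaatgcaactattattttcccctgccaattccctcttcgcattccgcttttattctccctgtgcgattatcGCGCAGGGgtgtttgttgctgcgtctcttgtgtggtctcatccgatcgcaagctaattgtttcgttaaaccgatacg
Y41G9A.17 chrX:2997018-2997168 (+): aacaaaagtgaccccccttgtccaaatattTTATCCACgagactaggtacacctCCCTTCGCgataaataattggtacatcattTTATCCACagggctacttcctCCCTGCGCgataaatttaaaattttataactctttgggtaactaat
The 4 strongest regions without a core were the following.
F19H6.5 chrX:12363096-12363246 (+): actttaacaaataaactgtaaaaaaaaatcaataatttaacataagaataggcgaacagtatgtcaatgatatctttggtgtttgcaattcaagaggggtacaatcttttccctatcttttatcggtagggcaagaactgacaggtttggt
K02D3.1 chrX:13700811-13700961 (+): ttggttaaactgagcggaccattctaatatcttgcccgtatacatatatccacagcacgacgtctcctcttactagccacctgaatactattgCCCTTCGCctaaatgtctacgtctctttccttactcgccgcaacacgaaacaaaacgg
ZK899.6 chrX:9465771-9465921 (+): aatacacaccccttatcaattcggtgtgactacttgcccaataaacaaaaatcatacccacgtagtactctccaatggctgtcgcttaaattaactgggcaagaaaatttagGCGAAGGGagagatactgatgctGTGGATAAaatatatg
T27A8.7 chrX:16056490-16056640 (+): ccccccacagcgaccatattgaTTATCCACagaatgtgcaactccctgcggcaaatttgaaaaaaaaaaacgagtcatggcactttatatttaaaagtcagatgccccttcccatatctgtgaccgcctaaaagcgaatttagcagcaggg
Of these last 4 windows, the window at F19H6.5 held none of the 3 words, that at K02D3.1 held GCGAAGGG, that at T27A8.7 held GTGGATAA, and that at ZK899.6 held both.

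The summit nearest W02H3.3, an intergenic site 3954 bp from that gene's start, had the highest signal of the 320, at 214 in the IDR list, 103 in replicate 1 and 120.3 in replicate 2. It ranked 6 in each replicate. The intergenic region nearest F19H6.5 followed, with 210.5 in the IDR list, 72.4 in replicate 1 and 126 in replicate 2. The region in an intron of mom-1, whose product acylates Wnt ligands for their secretion, had signals of 199, 87.1 and 115 in the same order of lists, and held 2 cores. These regions ranked among the 27 strongest of either replicate. They were picked by their signal in a list made from the same replicates, so high ranks in both follow in part from that choice. The region nearest K02D3.1 was less even: its signal of 193 in the IDR list stood beside 109 in replicate 1, where it ranked 3, and 46.1 in replicate 2, where it ranked 497.

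The regions nearest ZK899.6, gtr-1 and T27A8.7, the region in an intron of Y41G9A.17 and the region nearest F22H10.2 had IDR-list signals of 188, 185, 183, 177 and 175. Their replicate 1 signals ran from 68.8 at T27A8.7 to 81.6 at ZK899.6, and their replicate 2 signals from 89.4 at F22H10.2 to 117 at Y41G9A.17. Signals of replicate 2 ran higher as a whole: the median of its 2253 strongest regions was 34.4, against 26.5 in replicate 1. Among the 25 strongest regions, 18 were intergenic, 5 lay in introns and 2 at noncoding genes, and the weakest had a signal of 108. Those below the first 9 lay in introns of irk-3, an inward-rectifier potassium channel gene, F46H5.3 and prmn-1, or nearest sma-9, a Schnurri-type zinc finger gene of body size control, mig-15, a Ste20-type kinase gene, and unc-10, the RIM protein of synaptic vesicle release. Others were nearest F55G7.5, F20B6.9, tmem-184, xol-1, C44H4.8, pigx-1, the serotonin receptor gene ser-1 and sto-4. The 2 at noncoding genes lay inside F09A5.3 and aak-2, which encodes a catalytic subunit of AMP-activated kinase. The worst rank of any of the 25 was 419 in replicate 1 and 1136 in replicate 2, so all 25 stood within the 2253 strongest regions of each replicate.

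The core was found at 12 of the 320 regions, or 3.75% (Wilson 95% interval 2.16 to 6.44), against 7 of 2529 X background regions, or 0.277%. The background regions were the X regions of the pooled relaxed list outside promoters with no IDR summit within 100 bp. With those near an IDR summit kept in, the background share was 0.633% and the difference 3.12 points. With them left out, the difference was 3.47 percentage points (Newcombe interval 1.85 to 6.17). In the 2253 strongest regions of each replicate taken alone, the X regions outside promoters held it at 2.81% in replicate 1, against 0.275% of that replicate's background, and at 3.56% in replicate 2, against 0.128%. Both replicates thus gave the same direction, and the difference was 2.54 points in replicate 1 and 3.43 points in replicate 2. Intervals cover counting error only and treat regions as independent, although neighbouring regions share sequence.

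Windows beside the summits and the letters in another order were counted as well. In a flanking window, from 300 to 500 bp beside each of the 320 summits, the core was at 1 region, or 0.313%. The same letters read backwards, GGGACGCG, were at 2 of the 320 regions (0.625%), against 0.0791% of the X background. That difference was 0.546 points (0.0467 to 2.17), an interval that also lies above 0, though it rests on 2 regions. The 12 regions with a core held 15 matches, and 3 of the regions held 2. The nearest match lay a median of 25.5 bp from the summit, with quartiles of 4.5 and 42.75 bp and a range of 1 to 91 bp. These distances are bounded by the 100 bp searched.

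**Figure D1:**
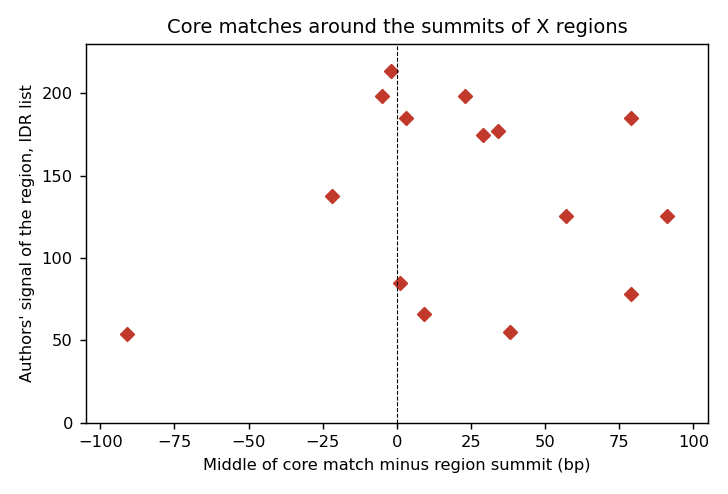
Distance in bp from the summit to the middle of each of the 15 core matches (x axis) against the authors' signal of the region in the IDR list (y axis), 1 point per match. Only matches within 100 bp of the summit were searched, which bounds the distances. The farthest lies 91 bp away, and 11 of 15 lie to the right of the summit on the plus strand.

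The core went with high signal. Ordered by signal in groups of 80, the strongest 80 regions held it at 9, the next 80 at 1, the next at 2 and the weakest at 0. It was at 5 of the 10 strongest and 7 of the 25 strongest. Regions with a core had a median signal of 131 (range 54.0 to 214, n = 12) in the IDR list, against 58.4 (41.6 to 210.5, n = 308) for those without. In replicate 1 the medians were 70.9 (n = 11) with a core and 27.3 (n = 285) without, and in replicate 2 they were 80.3 (n = 12) and 33.0 (n = 290). The ranges overlapped in each list. With the 25 strongest regions left out, a choice made after the data were seen, 5 of 295 regions (1.69%) held the core and the difference from the background was 1.42 points (interval 0.406 to 3.63).

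The core matches of the other 8 regions are shown with 10 bases on either side, read on the strand of the core, with the core in capitals. They are named by the gene that holds the summit or has the nearest coding start.
F22H10.2 chrX:16682162-16682189 (-): agaaaacatcGCGCAGGGaacatcaaat
F20B6.9 chrX:4209256-4209283 (-): tgccgctatcGCGCAGGGacacctcttt
xol-1 chrX:8036391-8036418 (-): attttttatcGCGCAGGGacgtatgtcg
xol-1 chrX:8036425-8036452 (+): tttttccatcGCGCAGGGaacccttcga
col-185 chrX:13514548-13514575 (+): tacctttatcGCGCAGGGatattgaaat
pks-1 chrX:5429580-5429607 (+): attaaatttaGCGCAGGGaggacgccgt
Y41G9A.17 chrX:2997288-2997315 (-): agatcgtatcGCGCAGGGaggaagtatg
sedl-1 chrX:1437285-1437312 (+): aatggaaattGCGCAGGGaggctgggta
dpy-23 chrX:4395605-4395632 (+): aaggagacaaGCGCAGGGagaactggtg
The first core region after those already shown, nearest F22H10.2, had signals of 175 in the IDR list, 70.9 in replicate 1 and 89.4 in replicate 2. The region nearest F20B6.9 had 138 in the IDR list, 97.5 in replicate 1 and 54.2 in replicate 2, and ranked 8 in replicate 1 and 287 in replicate 2. The region 4965 bp upstream of xol-1, the switch gene of sex determination that is active in males and keeps dosage compensation off, held 2 cores. Its signals were 125 in the IDR list, 47.7 in replicate 1 and 76.1 in replicate 2. The other region shown at Y41G9A.17 lies 200 bp from the strong one there and had no summit in replicate 1, against a signal of 84.6 in replicate 2. The weakest 2 core regions were nearest sedl-1 (55.0) and dpy-23, a clathrin adaptor gene (54.0).

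Read from the side of the sequence, chromosome X carried 81 core matches, 4.57 per Mb, against 233 on the autosomes, 2.82 per Mb. The letters read backwards were also denser on X, with 82 matches, 4.63 per Mb, against 220 on the autosomes, 2.66 per Mb. The higher density on X was therefore not particular to the core. Outside promoters, 16 of 64 X matches had an IDR summit within 100 bp, or 25% (interval 16.0 to 36.8), against 0 of 165 on the autosomes. A count of 0 allows a share of up to 1.82% at 3 counts of 165, and the Wilson upper limit is 2.28%. The 165 were not all separate sequences. Many on chromosomes III, IV and V, at noncoding genes, carried the same 10 letters on either side of the core, and other flanking sequences recurred too. The limit treats each copy as independent, and whether reads could be placed on such copies was not tested. Of the 16, 15 lay near the regions described here and 1 near a region whose summit was in a promoter. Inside promoters, 4 of 17 X matches and 2 of 68 autosomal ones had an IDR summit within 100 bp. Of those 2 autosomal matches, 1 lay near a region whose summit was outside promoters. Among the 2253 strongest regions of a single replicate, 13 X matches had a summit in replicate 1, against 0 autosomal ones, and 17 X matches had one in replicate 2, against 1 autosomal one. In the pooled relaxed list the counts were 24 of 64 on X (37.5%) and 9 of 165 on the autosomes (5.45%). The 24 include the 16 with an IDR summit, so the 2 lists are not separate evidence. The letters read backwards had an IDR summit at 2 of 62 X matches and at 2 of 148 autosomal ones.

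**Figure D2:**
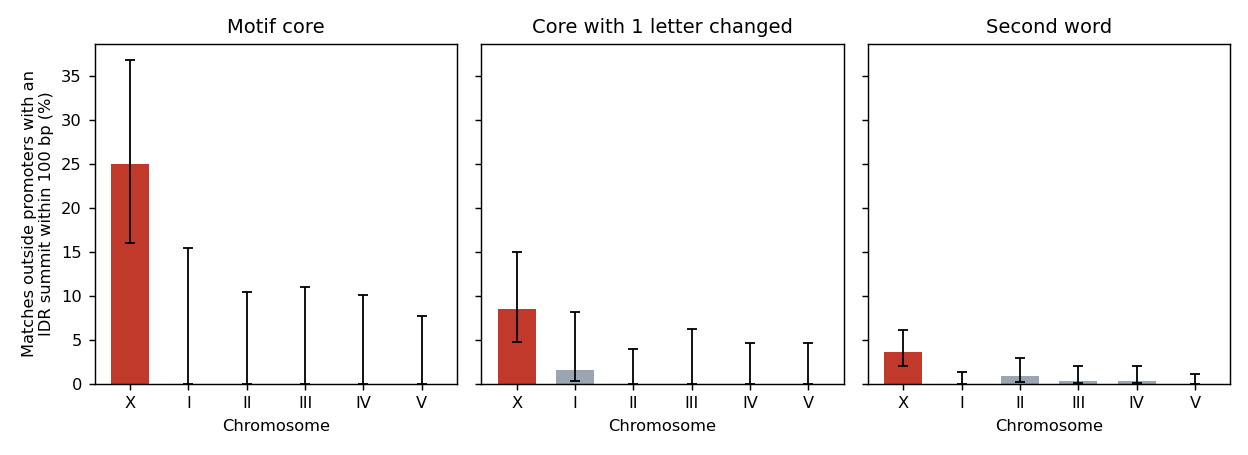
Share of matches outside promoters that had an IDR summit within 100 bp (y axis, percent) for chromosome X and each autosome, with Wilson 95% intervals as bars, for the core, GCGAAGGG (the core with 1 letter changed) and GTGGATAA (the second word). X stands at 25%, 8.55% and 3.56%, and no autosome reaches 2% in any panel.

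The letters beside the core were read at autosomal matches as well. The first match outside promoters with no IDR summit on each of chromosomes II to V is given in the same way.
sgcb-1 chrII, core at chrII:328473-328480 (+): cctctcaaccGCGCAGGGgtcctctttt
col-88 chrIII, core at chrIII:48597-48604 (-): cgtgcaactcGCGCAGGGgttcgaaccc
best-19 chrIV, core at chrIV:285443-285450 (+): cgatgctcgaGCGCAGGGaaaaatcggt
nhr-15 chrV, core at chrV:314756-314763 (-): cgcagaatcgGCGCAGGGggtgcgcaga
The X matches with an IDR summit most often had T and C before the core, at 13 and 11 of 16, and A after it, at 14 of 16, followed by G at 7 of 16. At least 3 of these 4 letters were present at 11 of those 16 matches, at 3 of the 48 other X matches and at 8 of 144 on chromosomes II to V. The letters were taken from the 16 matches themselves, so the first count and its contrast with the other counts are a description and support nothing. The 48 also include a match with all 4 letters at chrX:11094125-11094132. It lay beside the strongest region, at W02H3.3, with no IDR summit within 100 bp but a summit of the pooled relaxed list. The 144 are part of the 165 autosomal matches, and the letters beside the rest were not read. Many of the 144, at noncoding genes on chromosomes III, IV and V, carried the same 10 letters on either side. Those copies held fewer than 3 of the letters and each was counted, which lowers the autosomal share. The letters beside the match at nhr-15 also recurred on chromosomes II and V. A share with each sequence counted once was not computed.

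The other 2 words were picked from the windows of the strongest regions, so their counts in these regions were fixed in part by that choice and are a description that supports nothing. GCGAAGGG was at 9 of the 320 regions (2.81%), against 0.158% of the X background, and GTGGATAA at 10 (3.13%), against 0.316%. Each was at 6 of the 25 strongest regions. At least 1 of the 3 words was at 21 of the 320 regions (6.56%), against 19 of 2529 background regions (0.751%) and 6 of 835 autosomal IDR regions outside promoters. Against X promoter regions, at 3.33%, the difference was 3.23 points, with an interval of -0.83 to 6.91 that spans 0. At least 1 word was at 10 of the 25 strongest and at 11 of the other 295, so 15 of the 25 strongest held none of them. At least 2 of the 3 were at 8 of the 320 regions, against 2 of 210 X promoter regions, 0 of 835 autosomal regions outside promoters and 0 of 2529 background regions. Of those 8, 7 were among the 25 strongest, the regions from which the words were read.

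The GAGA repeat, GAGAGAG, is a stretch of alternating purines that many worm binding regions share. It was at 54 of the 320 regions, or 16.9% (interval 13.2 to 21.4), against 3.36% of the X background, or 4.79% of it with regions near an IDR summit kept in. The difference from 3.36% was 13.5 points (9.73 to 18.05), and it was 10.7 points in replicate 1 alone and 12.1 points in replicate 2 alone. Unlike the core it was less frequent here than at autosomal IDR regions outside promoters, where it was at 24.9%: the difference was -8.04 points (-12.8 to -2.74), with -9.13 in replicate 1 and -10.2 in replicate 2. It was at 17 of the strongest 80 regions and at 14 of the weakest 80, and at 2 of the 25 strongest, nearest C44H4.8 and unc-10. In the flanking window it was at 2.81%.

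**Figure D3:**
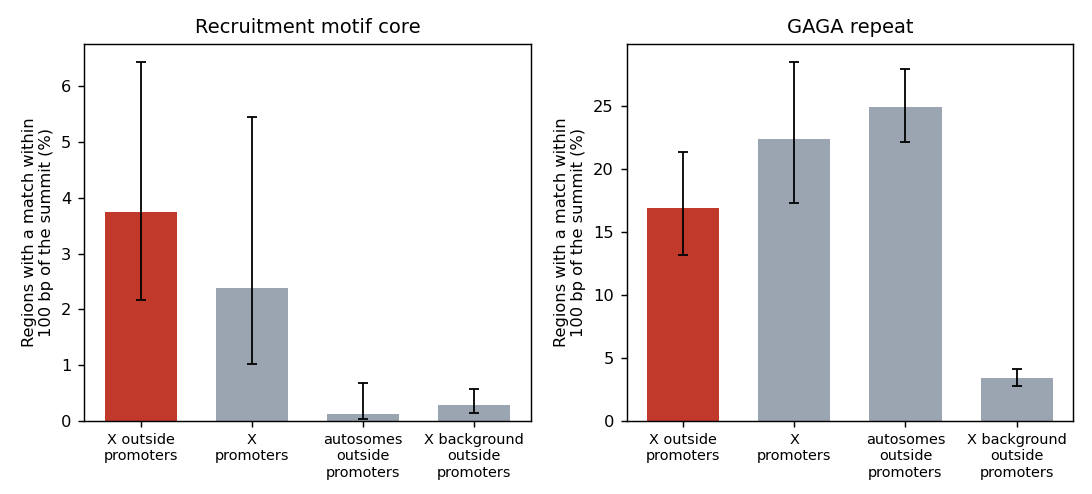
Share of regions (y axis, percent) with the core (left) or the GAGA repeat (right) within 100 bp of the summit, for X regions outside promoters (320), X promoter regions (210), autosomal regions outside promoters (835) and X background regions (2529), with Wilson 95% intervals as bars. The core stands at 3.75%, 2.38%, 0.120% and 0.277%, and the GAGA repeat at 16.9%, 22.4%, 24.9% and 3.36%.

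The core was not limited to sites away from promoters: 5 of 210 X promoter regions held it (2.38%), and the X set exceeded these by 1.37 points, with an interval of -2.09 to 4.38 that spans 0. Against the 835 autosomal IDR regions outside promoters, of which 1 held it (0.120%), the difference was 3.63 points (1.94 to 6.32).

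The forkhead motif RTAAAYA, in which R is A or G and Y is C or T, was at 13.8% of the 320 regions, against 20.4% of the X background. The stricter form GTAAACA was at 4.06%, against 3.88%. The GATA factor site TGATAA was at 8.44%, against 14.9%, and the homeodomain site TAATTA at 3.75%, against 10.8%. Base composition moved with these shares: the windows of the 320 regions had a GC content of 42.5 ± 6.59% (SD over regions, n = 320), against 36.1 ± 7.91% in the X background (n = 2529). With the background weighted to the same GC content, its share was 13.6% for RTAAAYA, 9.84% for TGATAA and 5.85% for TAATTA. The core and the GAGA repeat stood at 0.445% and 5.56% of the background so weighted. The remaining motifs were scarce in both sets: 0.938% held the SP1-type site CCCGCCC, against 0.554%, the E-box CACGTG at 3.44%, against 2.69%, and the AP-1 site TGASTCA, in which S is C or G, at 2.81%, against 2.21%.

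The 10-letter words held by the most regions were A-rich or of A and G, and none was at more than 29 of the 320. The commonest, AAAAAAAGAA, was at 29 regions (9.06%), against 3.60% of the X background, and AAGAAGAAGA was at 21 (6.56%), against 1.19%. At autosomal IDR regions outside promoters the same words were at 9.10% and 10.5%. Words that hold the core, CCCTGCGCGA and CGCGCAGGGA, were at 9 regions each and at 0 background and 0 autosomal IDR regions outside promoters. AGAGACGCAG, which does not hold the core, was at 13 regions (4.06%), against 0.277% of the X background and 8.86% of autosomal IDR regions outside promoters. All these words were ranked by their count in these regions, so the counts are a description only.

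Chromosome X had a larger share of its IDR regions outside promoters, at 60.4% (320 of 530, interval 56.2 to 64.5), against 48.5% on the autosomes (46.1 to 50.8). The difference was 11.9 points (7.08 to 16.6), with 6.88 in replicate 1 alone and 10.8 in replicate 2 alone. The pooled relaxed list had the same direction, at 71.7% on X and 64.8% on the autosomes. Of its 2842 X regions outside promoters, 313 had an IDR summit within 100 bp, or 11.0%. Near the edge of the promoter window, the closest summits outside it lay 14 bp away, nearest ZK470.2 (signal 64.9), and 22 bp away, nearest trk-1 (52.4). The closest inside lay 6 bp from the edge at egl-17 (46.6) and 28 bp at fbxb-58 (110).

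Within the set, 139 regions were intergenic (43.4%), 89 lay within 200 bp of a noncoding gene (27.8%), 82 in introns (25.6%) and 10 in exons (3.13%). Exons held fewer of these summits than of the X background, with a difference of -12.5 points (-14.6 to -9.66), against 15.7% of background summits in exons. Noncoding genes held more, by 15.0 points (10.2 to 20.3), against 12.8% in the background. Autosomal IDR regions outside promoters differed from their own background in the same directions, by -16.7 points in exons and 14.9 points at noncoding genes, and 24.8% of X promoter regions lay at noncoding genes. Intergenic sequence differed by 1.52 points (-4.14 to 7.32) and introns by -3.99 (-8.82 to 1.35), and both intervals span 0. In single replicates they did not all do so: the intron difference was -6.46 (-11.0 to -1.31) in replicate 1 and -5.91 (-10.6 to -0.60) in replicate 2, and the intergenic difference was 9.08 (3.53 to 14.8) in replicate 1 and 4.20 (-1.51 to 9.98) in replicate 2. With promoters of 500 bp upstream to 100 bp downstream the intron difference was -5.53 (-9.84 to -0.73). The noncoding genes were of the class annotated as ncRNA at 77 regions (24.1%, against 11.5% of the background) and tRNA genes at 26 (8.13%, against 2.33%), with 15 regions near both kinds and 1 near the miRNA gene mir-56. None of the 26 regions near a tRNA gene and none of the 77 near an ncRNA gene held a core.

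**Figure D4:**
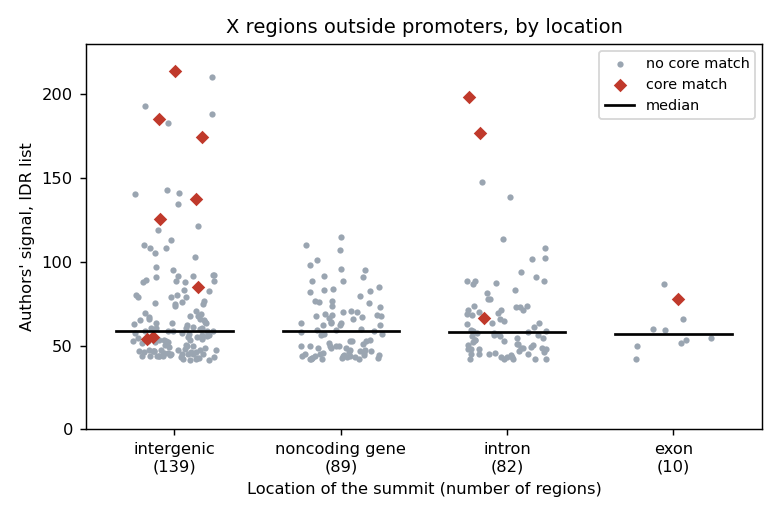
Authors' signal in the IDR list (y axis) of each of the 320 regions by the location of its summit, with points spread sideways for legibility, the median as a line and core regions as diamonds. Medians were 58.7 intergenic, 58.8 at noncoding genes, 57.9 in introns and 56.8 in exons, while the core regions above 100 were intergenic or in introns.

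Signal over the 320 regions ran from 41.6 to 214 with a median of 58.6, against a median of 62.3 and a highest value of 166 for X promoter regions and a median of 58.7 and a highest value of 162 for autosomal regions outside promoters. The medians lay within 4 units of each other, and the highest X values outside promoters were above both other maxima. They were not the highest of the series: autosomal promoter regions reached 304, with a median of 59.7. The nearest coding start lay a median of 2517.5 bp away, against 2156 bp for the X background. It was within 2000 bp for 37.5% of the regions, against 46.6% of the background, a difference of -9.08 points (-14.6 to -3.32).

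The set was chosen by IDR over both replicates, so presence in both was largely fixed by that rule. The signals of the 2 replicates were loosely related. A relaxed summit within 100 bp was found for 296 of the 320 regions in replicate 1 (92.5%), for 302 in replicate 2 (94.4%), for 280 in both (87.5%) and for 2 in neither. The share in both was 90.5% for X promoter regions and 89.9% for autosomal IDR regions outside promoters. Within the 2253 strongest of each replicate, 172 regions (53.8%) stood in both, against 65.2% of X promoter regions (difference -11.5 points, -19.7 to -2.92) and 55.2% of autosomal regions outside promoters (-1.46, -7.87 to 4.90). Across the 280 regions with both values, the rank correlation (Spearman's rho) came to 0.43 and that of log2 signal (Pearson's r) to 0.43, a description of regions that share 2 libraries. The log2 ratio of replicate 2 over replicate 1 had a median of 0.32 and an SD of 0.74. The widest gaps were at the region nearest xol-1 that lies within 200 bp of a tRNA gene, at 6.99 in replicate 1 (rank 25868) but 55.4 in replicate 2 (rank 265), and at a region in an intron of unk-1, at 36.2 in replicate 1 (rank 494) but 6.93 in replicate 2 (rank 20958).

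**Figure D5:**
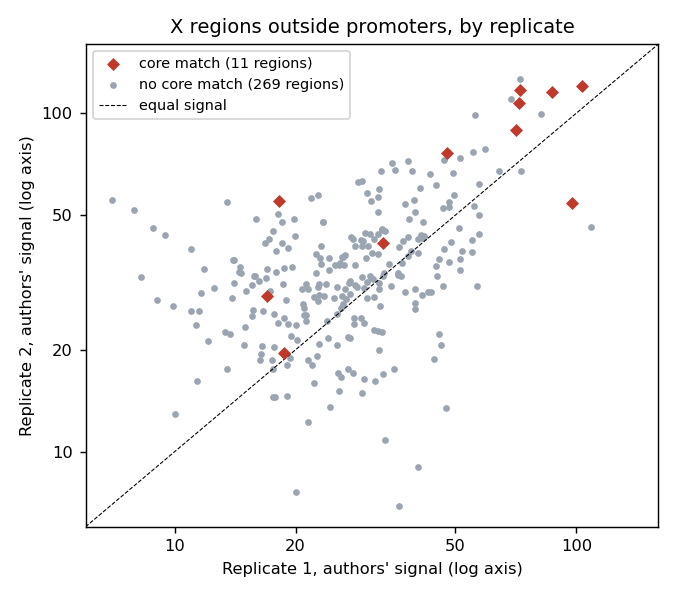
Authors' signal of the 280 regions with a summit in both replicates, replicate 1 on the x axis and replicate 2 on the y axis, both log axes, with a dashed line of equal signal. The 11 core regions are diamonds, most of them at the upper right, and most points lie above the line, as signals of replicate 2 ran higher as a whole.

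Along X the 320 regions were spread from end to end, at 9 to 31 in each 1 Mb interval, with a median gap of 30897 bp between neighbours. Joined at gaps of up to 2000 bp they formed 279 groups, of which 250 were single regions. The largest group, of 6 regions, lay in lin-14, a regulator of larval timing, and a further region in the same gene brought its count to 7. Its IDR-list signals were 41.8 to 95.1, and 1 of the 7 had no summit in replicate 2. The next group, of 4 regions, lay between nhr-28, a nuclear hormone receptor gene, and the acetylcholinesterase gene ace-1, with a top signal of 76.3. The 25 strongest regions did not cluster: their closest pair was 49880 bp apart and the median gap 478684 bp. In all, 122 summits lay inside 99 coding genes, of which 16 held 2 or more. Among these was fox-1, whose RNA-binding product acts as an X signal that lowers xol-1, with regions of 86.5 and 71.4 in the IDR list.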

How the data were processed

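ChIP-seq region lists of 2 biological replicates were used, on build ce11. Per the labels and the files' descriptions, the authors made 1 list by IDR over both replicates and relaxed lists, background included, for the pooled replicates and for each replicate. The deposited signal of each region is the authors' enrichment against a control library. Aligner, caller and thresholds were not given in the sources used here. Neither the reads nor the control library were analysed, and depth is unknown. Signal was used to order regions inside a list. Its overall level differs between the replicate lists, so a signal above or below that of the other replicate is no measure of binding.

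Positions count from 1. Ensembl release 115 gave genes and the RefSeq genome of WBcel235 gave sequence. A summit within 200 bp of a noncoding gene was placed there, otherwise in an exon, an intron or intergenic sequence. Shares carry Wilson 95% intervals and differences Newcombe intervals, which cover counting error only; no p-value was computed, since regions of 1 experiment are not replicates. Each replicate alone was represented by its 2253 strongest regions. Nothing says the replicates came from separate cultures beyond the label biological.

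Regions, motifs and lists were chosen with earlier results of these data known, and GCGAAGGG and GTGGATAA after the strongest windows had been read. Genes named were those at the 25 strongest regions, at regions with a core and at the edge of the promoter window; genes named for spacing, for repeated regions and for the widest replicate gaps were chosen after their values were seen. The steps ran in Python 3.11.15 with pandas 2.3.3, numpy 2.4.6 and scipy 1.17.1, and were tested on simulated data with a planted motif and a planted overlap.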

Additional observations from a re-analysis of the deposited data

How the results depend on the processing

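Under the alternatives run, the core, GAGA, exon and noncoding differences and the X difference from the autosomes in share outside promoters kept their direction. The intergenic difference, whose interval spans 0, was -0.22 points with promoters of 2000 bp upstream to 500 bp downstream. The forkhead RTAAAYA difference did not hold once the background was weighted by GC content (13.8%, against 13.6%). The other motifs and the distance to a coding start were not recomputed under every alternative. The set numbered 376 with promoters of 500 bp upstream to 100 bp downstream, 247 with the wider promoters, 237 with noncoding starts as promoters, and 154 in the stronger 1126 IDR regions. The core difference was 6.20 points in those stronger regions, 9.55 points with at most 1 mismatch (14.1%, against 4.51%), and 1.42 points without the 25 strongest regions, an alternative added after seeing the data. The GAGA difference was 5.68 points within 50 bp and 18.2 points within 200 bp. The share of regions with a summit in both replicates was 59.1% within 50 bp, 97.8% within 200 bp and 99.4% by 1 bp of overlap, so it depended on the distance allowed.

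With each replicate alone, the set numbered 309 to 320, the core difference ranged from 2.54 to 3.43 points, the GAGA difference from 10.7 to 12.1, the intergenic difference from 4.20 to 9.08, the intron difference from -6.46 to -5.91, the exon difference from -18.5 to -11.8, and the X difference from the autosomes in share outside promoters from 6.88 to 10.8. The median distance from the summit to the core ranged from 15 to 43 bp. The cause of these shifts was not tested. No paired analysis was possible because there was 1 group. Depth is unknown, so signals carry no stated precision, and 12 regions with a core limit every statement about it.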
